A study of Mus musculus with 6 samples.

Results

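The laminin chain genes Lama1, Lama2, Lama3, Lama4, Lama5, Lamb1, Lamb2, Lamb3 and Lamc1 were followed in mouse kidney mRNA. Kidneys of day 0 control mice were compared with those of other mice after 21 days of gavage with adenine and potassium oxonate. The 9 genes were the rows of the raw count table, which lists 55450 genes, whose GENCODE mouse release 21 symbol is one of these names. They were matched by name alone, although the set was drawn up with earlier results of these data known. The gamma chain gene Lamc3 was outside this set, and its values are given beside it.

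Kidneys came from wild-type male C57BL/6J mice, bought at 7 weeks of age and kept for 1 week before the experiment. The day 0 group was the control and held 3 mice, which the labels describe as given 20% PEG, a vehicle. The day 21 group held 3 mice that received adenine at 0.16 g/kg together with potassium oxonate at 2.4 g/kg once daily by gavage. Adenine yields poorly soluble crystals in the kidney, and potassium oxonate blocks the enzyme that breaks down uric acid in mice, so that serum uric acid rises. No vehicle group of day 21 was analysed here, so the agents, the weeks of gavage and the age of the mice cannot be told apart. The labels call the mice separate replicates and name no batch.

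The 6 libraries held between 10963849 and 14333311 counts, and 16592 genes had enough counts to be tested. Tubule markers were abundant in each library, with a summed level between 13664 and 15448 CPM on day 0. CPM is the usual count of a gene relative to its library total, here with library sizes scaled by the TMM method. Mitochondrially encoded genes took between 9.39 and 9.86% of the counts on day 0 and between 3.82 and 4.42% on day 21.

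Laminins are secreted trimers of an alpha, a beta and a gamma chain that assemble into the sheet on which each basement membrane is built. In the kidney the chains differ by site: Lama5, Lamb2 and Lamc1 encode the laminin of the mature glomerular filter, Lamb1 encodes the beta chain of most other kidney basement membranes, and Lama3 and Lamb3 encode chains of the laminin that anchors epidermis and other epithelia. The chains are held in place by nidogens, perlecan, agrin and type IV collagen, and are read by integrins and dystroglycan on the cell surface.

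Of the 9 laminin chains, only Lamb1 passed the test in the main comparison, and it rose on day 21. Calls came from the quasi-likelihood test of edgeR and needed an adjusted p (Benjamini-Hochberg, over all 16592 tested genes) under 0.05 together with a fold above 1.5. Among all genes tested, 35.1% were called, 19.6% higher and 15.5% lower on day 21, against 1 of the 9 chains, which was higher. All 9 chains passed the filter on low counts, and each had counts in every library. At an adjusted p under 0.05 with no limit on the fold, Lamb1 and Lamc1 passed, where 45.6% of all genes did. An unadjusted p under 0.05 was reached by Lama4, Lamb1 and Lamc1, all higher, and by 8786 of the 16592 genes tested. DESeq2 called Lamb1 and Lama4 higher and none of the 9 lower, beside 3055 higher and 2741 lower among the 16592 genes. The log2 fold change was above 0 in 6 chains and below 0 in 3, with a median of 0.41 over the chains and of 0.03 over all genes tested. The 3 day 21 kidneys lay above the 3 day 0 kidneys in Lamb1 and Lamc1 alone, a separation in this direction that 30.7% of all genes showed, and no chain was separated the other way, where 26.4% were, or 57.1% in either direction. With library size alone in place of TMM scaling, the median of all genes moved to 0.42 and the calls from 3249 higher and 2572 lower to 5985 and 1338. Under that scaling 5 of the chains were called higher, namely Lama2, Lama4, Lama5, Lamb1 and Lamc1, so the chains are described here relative to the other genes of the library.

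**Figure D1:**
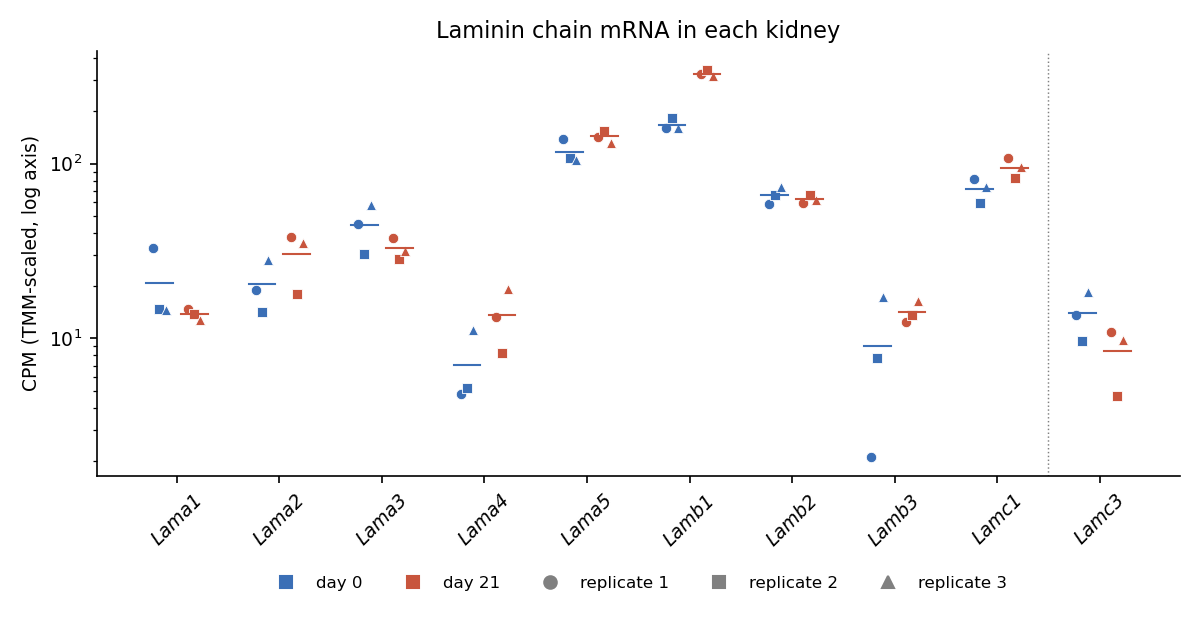
Level of each laminin chain in each kidney, in CPM on a log axis, with blue for day 0, red for day 21, a symbol for each replicate and a line at each group mean. Lamb1 and Lamc1 have all day 21 kidneys above all day 0 kidneys, Lamc3 stands right of the dotted line, and the Lamb3 point of day 0 replicate 1 lies lowest of all at 2.11 CPM.

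Among the beta chains, Lamb1 rose while Lamb2 and Lamb3 were not called. Lamb1 lies at chr12:31265234-31329644 (GRCm38, plus strand), is annotated as protein coding and has 33 exons in its longest transcript. Its counts were 1601, 2206 and 1555 in the day 0 kidneys and 4592, 5752 and 5153 in the day 21 kidneys. Scaled, these were 160.5, 181.8 and 160.3 CPM on day 0 against 324.6, 343.1 and 315.6 CPM on day 21. The lowest day 21 kidney was thus far above the highest day 0 kidney, and the SD within a group was 12.4 CPM on day 0 and 14.0 CPM on day 21 (n = 3 each). Its log2 fold change was 0.97 (SE 0.11, adjusted p = 5.27e-05 by edgeR), a fold of 1.96 with a 95% interval from 1.66 to 2.31. An exact two-sided permutation test over the kidneys gave p = 0.1, the smallest that 3 against 3 allows. The call held in all 16 alternative fits, with log2 fold changes between 0.92 and 1.36, and was lost when the thresholds were set at 0.01 and at a fold of 2.

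Lamb2, whose loss in humans causes a congenital nephrotic syndrome, lies at chr9:108479736-108490530 (GRCm38, plus strand) and is compact, with 33 exons in 10.8 kb. Its level was 59.2, 66.4 and 73.2 CPM in the day 0 kidneys and 59.9, 65.9 and 61.7 CPM in the day 21 kidneys. The groups overlapped, and the day 21 values all lay inside the day 0 range. On the log2 scale the change was -0.08 (SE 0.11), with a 95% interval from -0.34 to 0.17 and an adjusted p of 0.575 by edgeR. This interval leaves out a change by the 1.5-fold threshold in either direction. Across the alternatives the estimate ran from -0.18 to 0.31, the upper end with library size alone, and no fit called it.

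Lamb3, the beta chain of the epithelial anchoring laminin, was weakly expressed. Its counts were 21, 94 and 167 in the day 0 kidneys and 176, 228 and 269 in the day 21 kidneys, or 2.11, 7.75 and 17.2 CPM against 12.4, 13.6 and 16.5 CPM. The day 0 kidneys alone spread over the whole range, with day 0 replicate 3 above every day 21 kidney. The log2 fold change was 0.66 (SE 0.50, adjusted p = 0.306 by edgeR). Without day 0 replicate 3 it was 1.47 and called higher (adjusted p = 0.0158), and without day 0 replicate 1 it was 0.18 (adjusted p = 0.638), so these kidneys set the estimate.

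Sequence upstream of the start is shown for Lamb1 and Lamb2, since Lamb1 was called and Lamb2, of the same class, was not. The RefSeq promoter table for GRCm38.p6 had an entry for 5 of the 9 chains, Lama2, Lama5, Lamb1, Lamb2 and Lamb3. The lines give the part of each window of 250 bases that lies before the first annotated exon, 5′ to 3′ on the plus strand, at chr12:31265043-31265233 for Lamb1 and chr9:108479612-108479735 for Lamb2. Capitals mark matches, on either strand, to the GC box GGGCGG or to CCAAT.
Lamb1: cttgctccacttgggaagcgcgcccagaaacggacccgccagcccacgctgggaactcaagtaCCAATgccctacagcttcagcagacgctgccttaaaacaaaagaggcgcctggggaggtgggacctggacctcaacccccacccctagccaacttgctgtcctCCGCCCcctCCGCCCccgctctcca
Lamb2: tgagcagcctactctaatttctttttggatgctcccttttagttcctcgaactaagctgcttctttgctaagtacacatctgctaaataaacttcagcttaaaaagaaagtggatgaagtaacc

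The Lamb1 window held 2 GC boxes and 1 CCAAT, and the Lamb2 window held neither. G and C made up 62.0% of the Lamb1 window and 43.6% of the Lamb2 window. A GC box was found in 32.7% and a CCAAT in 33.8% of the 32851 windows of the table. The TATA box letters TATAAA, in 12.4% of windows, and the AP-1 letters TGANTCA, in 6.75%, were searched on both strands and matched in neither window. Of the other entries, Lama5 held 4 GC boxes and no other match, and the windows of Lama2 and Lamb3 held no match to any of these motifs. These are matches of letters and were not tied to any binding measurement.

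Among the alpha chains none was called, and they did not share a direction. Lama5, the alpha chain of the mature glomerular filter and of many epithelial basement membranes, was at 139.1, 108.1 and 104.8 CPM on day 0 and at 142.9, 154.6 and 132.1 CPM on day 21. The groups overlapped through day 0 replicate 1. Its log2 fold change was 0.29 (SE 0.13, adjusted p = 0.101 by edgeR), with a 95% interval from -0.01 to 0.58. Leaving out day 0 replicate 1 gave 0.41 with an adjusted p of 0.0203, still under the fold of 1.5, and the other leave-outs gave 0.20 to 0.34, the lowest without day 0 replicate 3.

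Lama1, the alpha chain of the earliest embryonic basement membranes, which the adult kidney keeps around its proximal tubules, was at 33.1, 14.8 and 14.6 CPM on day 0 and at 14.7, 13.8 and 12.7 CPM on day 21. A single kidney, day 0 replicate 1, stood apart, and the other kidneys of both days were within a narrow band. Its log2 fold change was -0.60 (SE 0.29, adjusted p = 0.116 by edgeR). It came to -0.12 without day 0 replicate 1, and to -0.80 and called lower without day 0 replicate 3 (adjusted p = 0.0379). In the same library, day 0 replicate 1, the integrin gene Itga6 was at 254 CPM against 135 and 133 CPM in the other day 0 kidneys. The linker gene Plec was at 170 against 104 and 103 CPM, and the injury keratin gene Krt20 at 16.04 against 0.247 and 0.515 CPM. Itga6 and Plec belong to the hemidesmosome and epidermal anchorage genes listed below, whose other members differed in direction. Among them Cd151 was highest there, at 177 against 154 and 143 CPM. Itgb4, at 6.32 against 7.50 and 8.04 CPM, and Krt5, at 0.401 against 2.64 and 3.09 CPM, were lowest there. The 8 injured tubule markers, Krt20 among them, summed to 315 CPM there against 224 and 224 CPM. They did not all go this way: Krt19 was lowest there, at 5.41 against 7.42 and 7.73 CPM, and Krt18 and Sox9 were in between. The part of these in the Lama1 value was not tested.

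Lama3, which lies on chromosome 18 and encodes the alpha chain of the epithelial anchoring laminin, was at 44.9, 30.6 and 58.1 CPM on day 0 and at 37.7, 28.6 and 31.8 CPM on day 21. The day 0 kidneys bracketed most of the day 21 values, and the groups overlapped. The fitted log2 fold change was -0.44 (SE 0.21, adjusted p = 0.111 by edgeR). Without day 0 replicate 2, the lowest of its group, it was -0.66 and called lower (adjusted p = 0.0118), and without day 0 replicate 3, the highest, it was -0.22 (adjusted p = 0.350).

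Lama2, whose loss causes a congenital muscular dystrophy, was at 19.0, 14.3 and 28.1 CPM on day 0 and at 38.2, 17.9 and 35.2 CPM on day 21. Lama4, the alpha chain of vascular basement membranes, was at 4.81, 5.19 and 11.1 CPM on day 0 and at 13.3, 8.23 and 19.2 CPM on day 21. Both had day 0 replicate 3 as the highest control and day 21 replicate 2 as the lowest treated kidney, and both overlapped between the groups. The log2 fold change was 0.58 (SE 0.30, adjusted p = 0.143) for Lama2 and 0.96 (SE 0.37, adjusted p = 0.0569) for Lama4 by edgeR. The Lama4 estimate was thus as large as that of Lamb1 with an SE over 3 times as wide. Without day 0 replicate 3, Lama2 was at 0.86 (adjusted p = 0.0391) and Lama4 at 1.42 (adjusted p = 0.00803), both called higher. Without day 21 replicate 2 they were at 0.85 (adjusted p = 0.0222) and 1.22 (adjusted p = 0.0221), again called higher. Other leave-outs moved the estimates the other way: Lama2 was at 0.36 (adjusted p = 0.391) without day 0 replicate 2 and at 0.38 (adjusted p = 0.385) without day 21 replicate 1, and Lama4 at 0.62 (adjusted p = 0.238) without day 21 replicate 3. Lama4 was called in 7 of 16 alternatives and Lama2 in 3. Of the exon bases of Lama2, 3.86% lie in the antisense gene Gm48084, counted 7, 10 and 12 times in the day 0 kidneys and 39, 37 and 58 times in the day 21 kidneys. The strand setting of the counting is not given in the sources used here, so reads of these genes over the shared bases cannot be told apart.

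Lamc1, the gamma chain of nearly all laminins of the kidney, had a small difference that passed on p but not on fold. Its level was 81.4, 59.8 and 73.2 CPM on day 0 and 107.2, 82.4 and 95.4 CPM on day 21. The groups did not overlap, though day 21 replicate 2 was only just above the highest control. The log2 fold change was 0.41 (SE 0.14, adjusted p = 0.0377 by edgeR), a fold of 1.33 with a 95% interval from 1.07 to 1.66. The adjusted p was no longer under 0.05 without day 0 replicate 2 (0.109), day 0 replicate 3 (0.0565), day 21 replicate 1 (0.145) or day 21 replicate 3 (0.0977), with log2 fold changes between 0.30 and 0.41 in these 4 fits. An exact two-sided permutation test gave p = 0.1, the smallest possible.

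Lamc3, a gamma chain with a restricted distribution and no member of the set, was at 13.5, 9.73 and 18.4 CPM on day 0 and at 10.9, 4.71 and 9.86 CPM on day 21, with a log2 fold change of -0.71 (SE 0.32, adjusted p = 0.0950 by edgeR) and overlapping groups. It was called lower in 3 of 16 alternatives, by DESeq2 at -0.74 (adjusted p = 0.0468), with the replicate block at -0.75 (adjusted p = 0.0134) and with no filter at -0.70 (adjusted p = 0.00371). Without day 0 replicate 3 it was -0.47 (adjusted p = 0.270) and without day 21 replicate 2 it was -0.42 (adjusted p = 0.256). Of its exon bases, 6.27% lie in the antisense gene Gm13441.

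**Figure D2:**
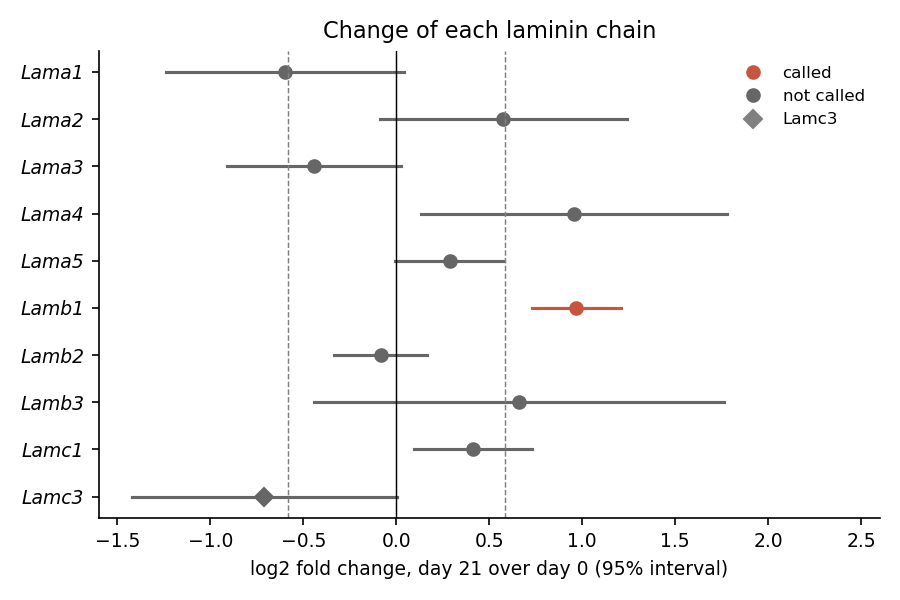
Log2 fold change of each laminin chain on day 21 over day 0 with its 95% interval from edgeR; dashed lines mark a fold of 1.5 in either direction, and the diamond is Lamc3. The interval of Lamb1 lies beyond the dashed line, that of Lamb2 lies between both lines, and those of Lama4 and Lamb3 are the widest.

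Levels were compared between chains per length of the gene, as TPM, the count per kilobase of exon brought to the same total in every library. Lamb1 was the most abundant chain on both days, at 36.6 ± 0.917 TPM on day 0 and 103.6 ± 5.34 TPM on day 21 (SD, n = 3), above every other chain in every kidney. On day 0 it was followed by Lamb2 at 23.7 ± 2.55, Lama5 at 22.5 ± 4.49 and Lamc1 at 18.9 ± 3.77 TPM, whose ranges overlapped one another. Lama3 came next at 9.08 ± 3.08 TPM, below every Lamc1 value but overlapping Lama1. The chains Lama1, Lamb3, Lama2 and Lama4 had means between 1.27 and 4.73 TPM, with overlapping ranges between neighbours. On day 21 the order after Lamb1 was Lama5 at 39.4 ± 3.33, Lamc1 at 35.9 ± 4.16 and Lamb2 at 32.2 ± 2.04 TPM, again with overlap between neighbours. By its mean Lamb2 thus moved from the second to the fourth place among the chains, but not in every kidney. In day 0 replicate 1 it was already below Lama5 and Lamc1, at 22.01 against 27.63 and 22.27 TPM. In day 21 replicate 2 it was above Lamc1, at 34.35 against 31.62 TPM. Lama3 stayed the fifth, at 9.53 ± 1.19 TPM, and the lowest 4 were Lamb3, Lama2, Lama1 and Lama4 with means between 3.53 and 6.72 TPM. TPM differences between days are not used as changes of a chain, because on this scale the median of the genes tested moved by 0.56 in log2, against 0.03 in CPM. The union of exons used as the length was well over that of the longest transcript for Lama2 (16338 against 9614 bases), Lama4 (12068 against 6046) and Lamb1 (9917 against 5784). With the longest transcript, Lamb1 was still the highest on both days, at 52.5 ± 1.26 and 142.8 ± 7.38 TPM, and the next 3 places were unchanged. The order of the lower chains depended on the length: with the longest transcript it was Lama3, Lama1, Lama2, Lamb3 and Lama4 on day 0, and Lama2, Lama3, Lamb3, Lama4 and Lama1 on day 21, with day 21 means between 3.63 and 7.94 TPM.

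In every day 21 kidney Lamb1 took a larger share of the beta class, and Lamb2 a smaller one, than in any day 0 kidney. A share of a class and a ratio of 2 chains do not depend on how libraries are scaled. Lamb1 made up 61.7, 60.3 and 52.5% of the summed beta chain level in the day 0 kidneys and 73.6, 72.9 and 71.6% in the day 21 kidneys. Lamb2 made up 37.1, 35.9 and 39.1% on day 0 and 22.1, 22.8 and 22.8% on day 21. Neither overlapped between the groups, with mean differences of 14.5 percentage points for Lamb1 and -14.8 for Lamb2. Lamb3 held 4.51% ± 3.66 on day 0 and 4.72% ± 0.765 on day 21 (SD, n = 3). The log2 ratio of Lamb1 over Lamb2 was 0.73, 0.75 and 0.43 on day 0 and 1.73, 1.68 and 1.65 on day 21. The ratio was therefore 2.07-fold higher on day 21, with no overlap and a range of the log2 difference from 0.95 to 1.11 when each kidney was left out. The exact two-sided permutation p was 0.1 for the ratio and for both shares, the smallest it can be, or 0.2 after Benjamini-Hochberg adjustment over 4 ratios and over 8 shares.

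In the alpha class Lama5 held the largest share in every kidney, 56.3% ± 6.83 on day 0 and 62.9% ± 6.02 on day 21 (SD, n = 3), with overlap. Lama1 made up 15.99, 10.05 and 8.05% on day 0 and 7.23, 7.32 and 6.71% on day 21, and Lama3 19.6, 18.8 and 28.8% against 16.7, 13.7 and 15.1%. Both shares were lower in every day 21 kidney (exact permutation p = 0.1 each, 0.2 after adjustment). The Lama1 share differed by -4.28 percentage points on average, and by -1.97 without day 0 replicate 1. The Lama3 share differed by -7.22 points, and by -4.0 without day 0 replicate 3. Lama2 and Lama4 held 6.79% ± 2.08 and 3.21% ± 1.56 on day 0 and 9.24% ± 3.12 and 5.62% ± 2.33 on day 21, both with overlap. The log2 ratio of Lama1 over Lama5 differed by -0.79 without overlap (exact permutation p = 0.1, 0.2 after adjustment), and by -0.52 without day 0 replicate 1. The ratios of Lama4 over Lama5 and Lama2 over Lama5 differed by 0.68 and 0.26 in log2 and overlapped between the groups (exact permutation p = 0.4 and 1.0). Leaving out each kidney moved these from 0.33 to 1.14 for Lama4 over Lama5, lowest without day 21 replicate 3 and highest without day 0 replicate 3, and from 0.05 to 0.66 for Lama2 over Lama5, lowest without day 21 replicate 1 and highest without day 21 replicate 2.

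**Figure D3:**
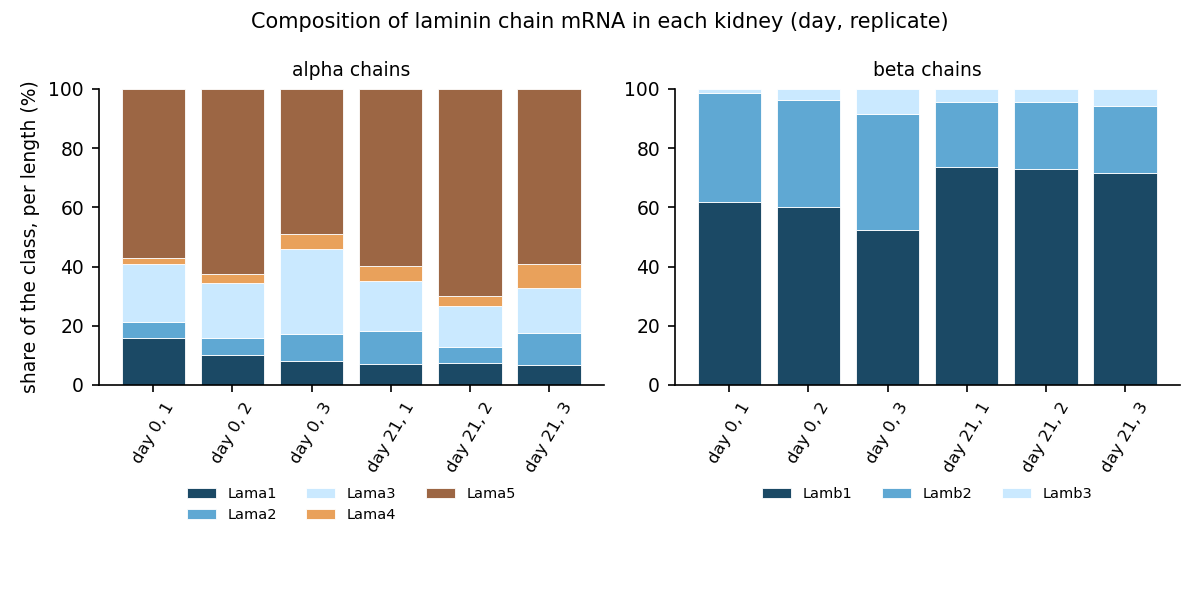
Share of each chain in the summed level of its class, in percent of TPM, with 1 stacked bar for each kidney and a panel each for alpha and beta chains. In the right panel Lamb1 fills between 52.5 and 61.7% of the day 0 bars and between 71.6 and 73.6% of the day 21 bars.

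Summed by class, the ratios of alpha to beta chains and of alpha chains to Lamc1 were lower in every day 21 kidney than in any day 0 kidney. The alpha chains together stood at 0.815, 0.498 and 0.610 of the beta chains on day 0 and at 0.473, 0.409 and 0.441 on day 21, and at 2.17, 2.10 and 2.12 times Lamc1 on day 0 against 1.62, 1.95 and 1.70 on day 21. For both ratios the exact permutation p was 0.1, or 0.12 after adjustment over 6 class values. Lamc3 was not part of these ratios, and was at 5.03, 3.27 and 6.70 TPM on day 0 and 5.50, 2.45 and 5.10 TPM on day 21. With Lamc3 added to Lamc1, the ratio of alpha to gamma chains overlaps between the groups. The mean difference of the alpha to beta ratio was -0.200, and -0.113 without day 0 replicate 1. The ratio of beta chains to Lamc1 overlapped, at 3.45 ± 0.771 on day 0 and 4.02 ± 0.682 on day 21 (SD, n = 3). In TPM the beta sum was 63.3 ± 4.44 on day 0 and 142.5 ± 7.21 on day 21, the alpha sum 40.3 ± 8.70 and 62.7 ± 1.69, and Lamc1 alone 18.9 ± 3.77 and 35.9 ± 4.16. These are levels and are not read as changes between days, since the median of the genes tested moved by 0.56 in log2 on this scale. On TMM-scaled libraries, in CPM per kilobase, the beta sum separated the groups, at 29.2 ± 2.53 and 45.5 ± 1.75, whereas the alpha sum overlapped, at 18.4 ± 3.11 and 20.0 ± 0.860.

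The ratio of Lamb3 to Lama3, chains of the epithelial anchoring laminin, and that of Lamb1 to Lamc1 were compared after the values had been seen. The log2 ratio of Lamb3 over Lama3 was -3.71, -1.28 and -1.06 on day 0 and -0.90, -0.37 and -0.25 on day 21. It was higher in every day 21 kidney, by 1.51 on average (exact permutation p = 0.1, 0.2 after adjustment over 2 ratios). Day 0 replicate 1, with 21 Lamb3 counts, carried much of this, and without it the difference was 0.66. Lamb1 over Lamc1 overlapped between the groups and differed by 0.56 in log2 (exact permutation p = 0.2).

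The genes whose products bind, surround or cut laminin were taken as 5 lists. Among all genes tested, 19.6% were called higher and 15.5% lower, with a median log2 fold change of 0.03. Where the count of a list lies near these shares, it is not read as a result about that list. Of 22 basement membrane partners, all tested, 13 were called higher and 3 lower, with a median log2 fold change of 1.20. The largest rises were those of Fbln2 at 3.0 and Col15a1 at 2.66, a fibulin and a collagen of basement membrane zones, and Frem1 at 2.28, an epithelial basement membrane adhesion gene. The 3 falls were those of Col4a3 at -1.09 and Col4a4 at -0.97, type IV collagen chains of the glomerular filter, and Fras1 at -0.86, which acts with Frem1. Among the laminin crosslinkers outside this rule, chosen after their values were seen, the agrin gene Agrn rose by 1.59 (adjusted p = 3.04e-06 by edgeR), the nidogen gene Nid1 by 1.14 (adjusted p = 0.00781), and the perlecan gene Hspg2 was at 0.31 (adjusted p = 0.113).

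Of 14 laminin receptor genes, 4 were called higher and 1 lower, with a median of 0.49. Of all genes tested, 19.6% were called higher and 15.5% lower. Bcam, a receptor for the alpha chain that Lama5 encodes, rose from between 162 and 209 CPM to between 545 and 681 CPM, a log2 fold change of 1.68 (SE 0.14, adjusted p = 9.75e-06 by edgeR). Itgb4, the integrin beta subunit of hemidesmosomes, rose by 1.66 and the syndecan gene Sdc1 by 1.47, and Sdc2 fell by 0.70. Itgb1, the beta subunit shared by most laminin-binding integrins, was also called higher, at 0.65, and is named outside the rule after its value was seen. Of 15 genes for the enzymes that build the laminin-binding sugar on dystroglycan, 14 were tested, 2 were called higher and none lower, with a median of -0.24. The 2 were Large2 at 0.99, which extends that sugar, and Pomk at 0.80, a kinase that acts on its core.

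Of 9 hemidesmosome and epidermal anchorage genes, all tested, 3 were called higher and 1 lower, with a median of 0.52; Itga6, Itgb4 and Cd151 stand in this list and in that of the receptors. Col7a1, the anchoring fibril collagen, rose by 3.33, and Col17a1, a transmembrane collagen that binds the laminin of Lama3, was counted 2, 1 and 0 times in the day 0 kidneys and 50, 84 and 44 times in the day 21 kidneys. The ratio of the summed Col17a1 counts was 39.9 with a 95% counting interval from 13.4 to 195. Dst, a cytoskeletal linker gene with long forms outside epithelia, fell by 1.27. Of 14 proteases known to process or cleave laminin chains, 12 were tested, 7 were called higher and none lower, with a median of 1.66. Mmp7 had 0 counts in the day 0 kidneys and 179, 469 and 249 on day 21, at least 65.3-fold higher when day 0 is set at 3 counts per library. Mmp2 rose by 3.75 and Mmp14 by 3.68, and Bmp1, whose product trims matrix proteins, rose by 2.67 (adjusted p = 3.44e-06 by edgeR, chosen after its value was seen). Beside these, the 9 chains had a median of 0.41. All genes tested had a median of 0.03, with 19.6% called higher and 15.5% lower.

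**Figure D4:**
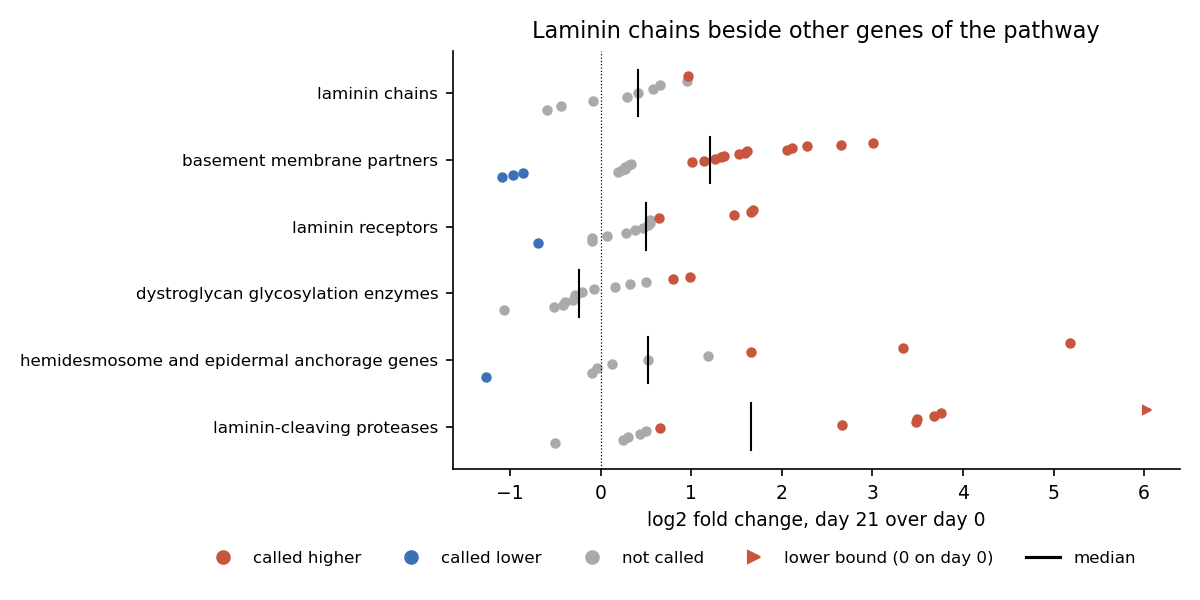
Log2 fold change of each tested gene on day 21 over day 0, in rows for the laminin chains and 5 lists of genes that act with them; red is called higher, blue called lower, grey not called, black bars are medians, and the arrowhead is the lower bound of Mmp7. The chains lie between -0.60 and 0.97, while the basement membrane partners reach 3.0 and the proteases at least 6.03.

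Several lists of cell type markers differed between the days, and in bulk tissue fewer cells of a type and less RNA per cell cannot be told apart. Of all genes tested, 19.6% were called higher and 15.5% lower. A few calls in a short list are thus not read alone as a change of that cell type. Of 7 tubule markers 5 were called lower, and their summed level lay between 5481 and 5838 CPM on day 21, under the day 0 range given above. All 8 injured tubule markers were called higher (224 to 315 CPM summed on day 0, 2658 to 2888 on day 21), as were all 7 fibroblast and pericyte markers (178 to 281 and 800 to 1319 CPM) and all 6 leukocyte markers tested of 7 (93.2 to 103 and 285 to 288 CPM). Of 7 podocyte markers 3 were called lower and 1 higher (433 to 689 and 363 to 408 CPM), and of 7 endothelium markers 2 were called lower (455 to 505 and 234 to 380 CPM). Among 5 smooth muscle markers tested of 6, 2 were called higher and 1 lower (174 to 190 and 194 to 277 CPM). Adipocyte markers (35.4 to 68.0 and 24.0 to 51.8 CPM) and adrenal cortex markers (5.44 to 11.5 and 4.95 to 6.06 CPM) had 2 tested genes each, with adjusted p between 0.1 and 0.904 by edgeR. Of 5 skeletal muscle markers Acta1 alone was tested and called higher, within a summed level of at most 3.40 CPM, and Myh4 was at 0 counts in all libraries.

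The chains with the widest spread within a group varied beside some of these lists. Lamb3 was at 2.11, 7.75 and 17.2 CPM in day 0 replicates 1, 2 and 3, and the 7 urothelium markers summed to 9.63, 29.7 and 59.2 CPM in the same kidneys. On day 21 the urothelium sum was between 11.4 and 20.9 CPM, overlapping day 0, and 1 of its 7 genes, Upk1a, was called lower, while Lamb3 was at 12.4 CPM or more. Lama2 and Lama4 were lowest of their group in day 21 replicate 2, where the fibroblast and pericyte sum was 800 CPM against 1254 and 1319 CPM. The endothelium sum was 234 against 380 and 368 CPM there, and the smooth muscle sum 194 against 277 and 266 CPM. In day 0 replicate 3, where Lama2 and Lama4 were highest of their group, the fibroblast and pericyte sum was 281 against 196 and 178 CPM. There the endothelium sum was 505 against 455 and 484 CPM, and the adipocyte sum 68.0 against 42.4 and 35.4 CPM. The smooth muscle sum, at 174 against 175 and 190 CPM, and the podocyte sum, at 433 against 647 and 689 CPM, were lowest there. Between the days, the endothelium sum went the other way from these chains. It was 455 to 505 CPM on day 0, above every day 21 kidney, while Lama2 and Lama4 had higher means on day 21. Lamb1 was highest of its group in day 21 replicate 2, at 343.1 CPM. The part of these lists in the values of the chains was not tested.

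**Figure D5:**
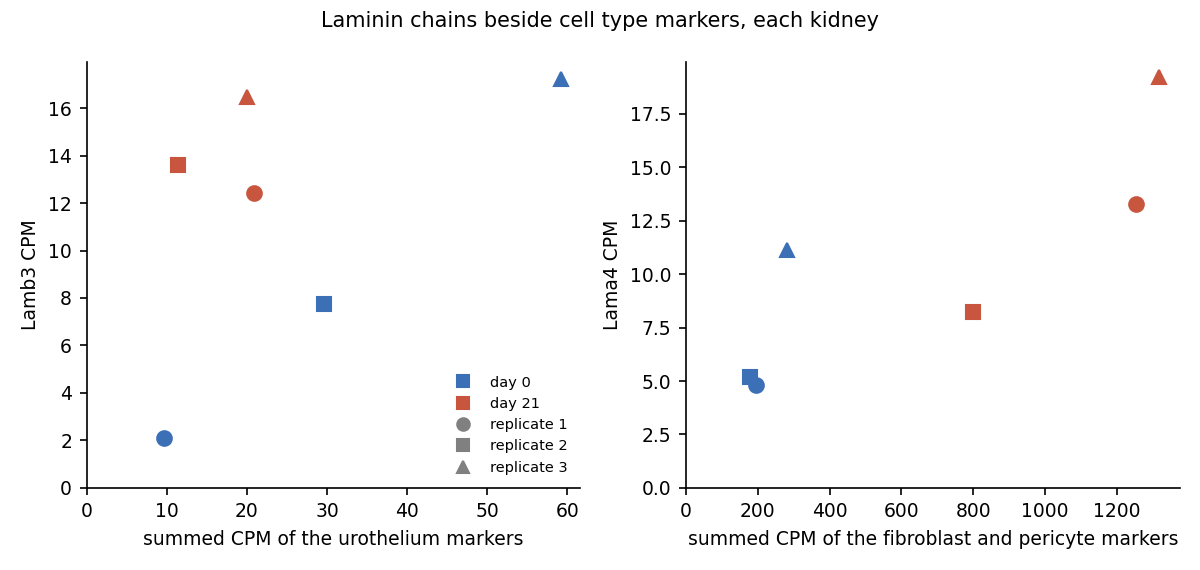
Left, Lamb3 in CPM against the summed CPM of 7 urothelium markers; right, Lama4 in CPM against the summed CPM of 7 fibroblast and pericyte markers, with 1 point for each kidney, blue for day 0 and red for day 21. On the left the day 0 kidneys run from 9.63 and 2.11 CPM to 59.2 and 17.2 CPM, and on the right day 21 replicate 2 is lowest of its group on both axes, at 800 and 8.23 CPM.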

How the data were processed

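Kidney mRNA of 3 mice on day 0 and 3 on day 21 was sequenced as paired-end reads. The authors aligned the reads and deposited raw counts per gene for each mouse, with no normalization. The submitters' processing notes name TopHat and the mm10 build, and the counting program and its strand setting are not given in the sources used here. All 55450 identifiers, with versions, are those of GENCODE mouse release 21 (GRCm38), which supplied symbols and exons. Samples were mapped to groups by their labels, and every column of the table was mapped. The members and lists were chosen with earlier results of these data known. The edgeR p-values set the difference between the groups against the spread between these mice, estimated with information shared over genes. The permutation p-values compare that difference with those under every regrouping of the mice.

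Counts were fitted in R 4.3.3 with edgeR 4.0.16 (filterByExpr at its defaults, 10 counts as the minimum and 15 as the minimum total; TMM scaling, quasi-likelihood test, group as the only term), tested on simulated data first. The thresholds are those of the study's methods. Single values, shares and ratios were compared by a two-sided exact permutation test in scipy 1.17.1, which cannot go below 0.1 with 3 against 3. At these depths 3 counts are between 0.209 and 0.274 CPM, and floors and intervals of counts cover counting error only. Named were all members, Lamc3, the 3 largest rises and falls among called genes of each list, and any gene of a list of 10 or fewer; Agrn, Nid1, Hspg2, Itgb1 and Bmp1 were named outside this rule. A few genes are not reported here.

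The alternatives tried were scaling by RLE, by upper quartile or by library size alone, a filter at a mean of 50 counts or none, DESeq2 1.42.0, limma-voom (limma 3.58.1), leaving out each mouse, a block for the replicate number, other thresholds, libraries without mitochondrially encoded or the 20 highest genes, and another gene length. After seeing the data, 2 ratios of chains were added, and each mouse was left out of them and of the class ratios. No pair of mice of a group was a duplicate, with a chi-square per gene between 7.19 and 24.0.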

Additional observations from a re-analysis of the deposited data

How the results depend on the processing

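Counts of Lamb3 and Lama4 lay between 21 and 314 per library, which limits what 3 mice per group can show for them. Chains called higher, 1 in the main fit, numbered 2 with upper quartile scaling, DESeq2, the replicate block or no limit on the fold, 5 with library size alone, 3 with no filter, and 0 under a stricter threshold (adjusted p 0.01, fold 2); Lama4 joined Lamb1 with upper quartile scaling, DESeq2 and the block, and Lama4 and Lamb3 with no filter. Leaving out each mouse gave 1 to 4 chains higher and 0 to 1 lower, against 0 lower in the main fit, and no filter gave 1 lower, Lama1. Over all 16592 genes tested, library size alone gave 5985 higher and 1338 lower, and the stricter threshold 1918 and 1254. Upper quartile scaling gave 3692 and 2168, the replicate block 3235 and 2523, and no limit on the fold 3972 and 3597. Without a filter these were 3614 and 2835 of 26914 genes. Leaving out each mouse gave 2844 to 3242 higher and 2283 to 2708 lower, of 16816 to 17225 genes. With library size alone 10 receptor genes, 4 dystroglycan enzyme genes and 5 hemidesmosome genes were higher, and 1 partner gene and 0 receptor genes lower. Upper quartile scaling gave 7 receptor genes higher and no limit on the fold 9, with 3 dystroglycan enzyme genes lower. The stricter threshold left 0 dystroglycan enzyme genes higher, 1 partner gene lower and 0 receptor genes lower, and a mean of at least 50 counts left 1 hemidesmosome gene higher. Leaving out each mouse gave 0 to 1 dystroglycan enzyme genes lower. Class differences in log2 were 0.12 (alpha), 0.64 (beta) and 0.41 (gamma, here Lamc1 alone) in CPM per kilobase. In TPM they were 0.64, 1.17 and 0.93, on a scale where the median of the genes tested moved by 0.56. With the longest transcript the Lamb2 share differed by -11.9 points. The cause of these differences was not tested, beyond the shift of all genes under library size alone. None of the values recomputed changed its called direction. The replicate numbers were not taken to pair the mice, since deviations of same-numbered mice correlated at -0.02, 0.17 and 0.09 and not every mouse correlated best with its own number; with the replicate block 2 chains were called higher.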
